A study of Saccharomyces cerevisiae with 40 samples.

Results

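The comparison set diploid baker's yeast, Saccharomyces cerevisiae, kept for 450 generations at 30 °C against diploid wild type, taken here as their ancestor. It used 4 of the 40 one-colour Affymetrix arrays of the series, 2 labelled as evolved under optimal conditions (30 °C replicates 1 and 2) and 2 labelled as diploid wild type (ancestor arrays 1 and 2). The array labelled diploid wild type on minimal medium was not among them. The labels of the ancestor arrays name no medium and do not call them the ancestor of the evolved samples. The evolved samples were populations, not clones. All cells had been grown for 18 generations without stress and were in mid log phase at RNA extraction. The labels give no allele, selectable marker or strain background for either group, and they do not say whether the ancestor arrays came from separate cultures, so spreads between arrays may be technical. The series also holds diploid populations after abrupt or gradual heat, an H2 line returned to 30 °C after heat, and unevolved clones trisomic or monosomic for chromosome III, which are cited here where they show how a gene behaved elsewhere.

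Growth of yeast for many generations under constant laboratory conditions enriches mutants that divide faster in that routine, and a line kept at the permissive temperature serves as the control for handling, medium and time. On glucose, yeast ferments even when oxygen is present and holds its respiratory genes at a reduced level through glucose repression. Ribosome assembly and amino acid synthesis are other large expenses of a growing cell, and both are tuned to growth rate and nutrient supply.

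The 4 arrays had been normalized in 4 separate runs, as inferred from values that are identical between arrays. 30 °C replicate 1 shared its run with an abrupt-heat array, ancestor array 1 with 7 other arrays and ancestor array 2 with the 4 gradual-heat arrays, while 30 °C replicate 2 stood alone. The medians of the deposited values ran from 5.33 to 6.44 (log2) on these 4 arrays. All 40 arrays were therefore quantile-normalized again, which gives every array the same distribution. Levels below are log2 values after that step, and a difference is 30 °C minus ancestor unless stated. The background level lay between 4.75 and 4.82. It is the 95th percentile of probe sets whose gene name matched no gene of baker's yeast, taken to be for another species.

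The closest pair of arrays from different groups was about as far apart as replicates were, and the other 3 pairs were farther. The standard deviation over 5449 genes of the difference between arrays was 0.346 for the ancestor pair and 0.356 for the 30 °C pair. Between groups it was 0.358 and 0.410 against ancestor array 1, and 0.480 and 0.483 against ancestor array 2. Gene by gene, 5303 genes were tested with limma, with the 4 abrupt-heat arrays in the fit to estimate the spread. At an adjusted p threshold of 0.05, 1 gene fell, MET17, and no gene rose, so 0.0189% of genes were called. Without adjustment, 392 higher and 307 lower genes had p under 0.05.

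The second rule asked that both 30 °C arrays lie on one side of both ancestor arrays, so that all 4 pairwise differences have one sign. It was met upward by 1499 genes (28.3%) and downward by 1257 (23.7%), and the median size of these differences was 0.33. With a smallest pairwise difference of at least 1.5-fold, 43 genes were higher (0.811%) and 35 were lower (0.66%). At the 1.5-fold minimum itself, DCI1 and TKL2 lay just inside, with smallest pairs of 1.503-fold and 1.502-fold, and MRPL28 and GIT1 just outside, at 1.498-fold and 1.493-fold. This split depended on the scale: the deposited values gave 109 higher and 4 lower, and values centred on array medians gave 71 and 13. Of the 78 genes, 58 belonged to none of the 30 gene lists described below.

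MET17, which encodes O-acetylhomoserine sulfhydrylase, the enzyme that fixes sulfide into homocysteine, was by far the largest change. It stood at 11.23 and 12.03 on the ancestor arrays and at 4.05 and 4.41 on the 30 °C arrays. Both 30 °C values were below background, so the level fell at least 117-fold. The fitted difference was −7.40 ± 0.31 (SE, n = 2 arrays a group), with an adjusted p of 4.42e-06 in limma. Its closest measured neighbours on chromosome XII differed little. HRI1 on one side differed by 0.10 ± 0.11 and ACO1, the aconitase gene on the other side, by 0.03 ± 0.15.

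MET17 was above background on 7 of the 40 arrays. These were the 2 ancestor arrays, the unevolved trisomic and monosomic clones at 10.95 and 11.55, the ancestor on minimal medium at 12.47, and the 2 arrays descended from the trisomic clone by 1000 generations of heat on minimal medium, at 13.01 and 13.05. It was below background on every abrupt-heat, gradual-heat and H2 array, on both haploid ancestor arrays (3.92 and 4.30) and in all other haploid groups. The low value was thus shared by the 30 °C populations with the heat populations and the haploids, and the labels give no MET17 genotype for any of them. Whether the arrays differ in an allele of MET17 or in strain background was not tested.

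Other genes of sulfur metabolism showed no common direction. Of 31 methionine and sulfur genes tested, 4 were higher and 5 lower on both 30 °C arrays (28.3% and 23.7% of all genes were). The list's median difference was −0.15, against 0.02 over all genes. The list's median rested on ancestor array 2: it was −0.37 against this array and 0.07 against ancestor array 1. It was 0.04 with the normalization run as a term (described below). MET32, a DNA-binding activator of the sulfur genes, had 6.57 and 6.54 in the ancestor and 7.25 and 7.57 at 30 °C, a difference of 0.86 ± 0.29. The low-affinity methionine permease gene MUP3 differed by 0.50 ± 0.26. STR2, encoding cystathionine gamma-synthase, was at 9.53 and 10.03 in the ancestor and at 8.72 and 9.25 at 30 °C. None of these 3 passed the limma threshold, and all 3 gaps between the groups were smaller than 1 log2 unit.

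**Figure D1:**
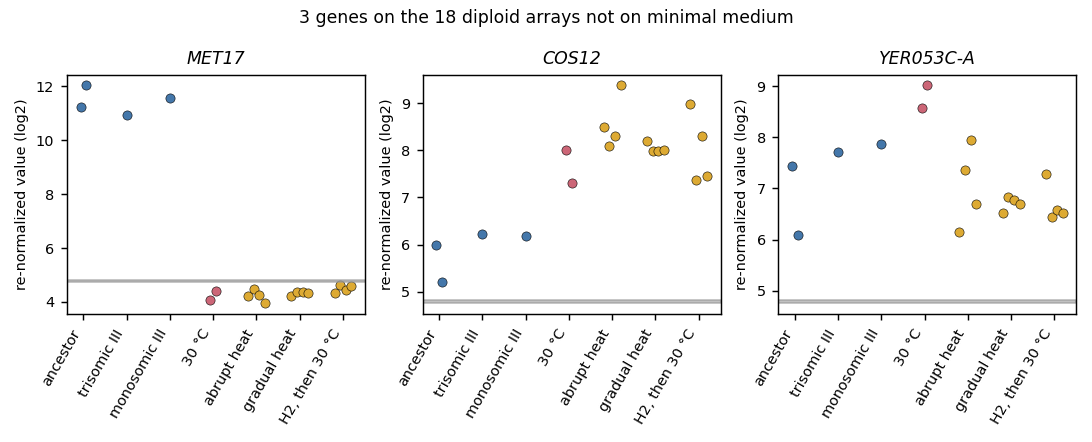
Re-normalized log2 values of MET17, COS12 and YER053C-A on the 18 diploid arrays not on minimal medium, 1 point an array; blue, unevolved; red, evolved at 30 °C; yellow, heat populations and the H2 line; the grey band is the background level of the 4 compared arrays. MET17 and COS12 separate all 14 evolved arrays from the 4 unevolved ones, while YER053C-A was highest on the 30 °C arrays.

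COS12 had the largest smallest-pair difference among the higher genes. It belongs to the subtelomeric COS family, whose members act in sorting membrane proteins for breakdown in the vacuole. The ancestor arrays read 6.00 and 5.21 and the 30 °C arrays 8.00 and 7.32, a difference of 2.06 ± 0.43 (adjusted p = 0.367, limma). It was as high in the other evolved diploids, at 8.09 to 9.38 after abrupt heat, 7.98 to 8.20 after gradual heat and 7.36 to 8.98 in the H2 line. The unevolved trisomic and monosomic clones read 6.23 and 6.19, and the ancestor on minimal medium 5.95. Across all 5303 genes, 7 separated the 14 evolved from the 4 unevolved diploid arrays without overlap, and MET17 and COS12 were the 2 with a gap above 1 log2 unit, at 6.32 and 1.08. In the heat descendants of the trisomic clone COS12 was at the level of the other evolved diploids, 8.22 and 8.37, while MET17 was at the level of the unevolved ones. Of the 8 COS genes tested, only COS7 was likewise higher on both 30 °C arrays, by 0.95 ± 0.44. With the run as a term COS12 shrank to 0.71 and COS7 turned to −0.51. The family's members are close in sequence, so their signals may be shared.

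The 12 genes that were highest by the smallest pair were COS12, YER053C-A, WSC4, CUR1, SCS7, RGI1, HSP42, YPL152W-A, VHS2, PAU24, HOP1 and SIS1. YER053C-A read 7.43 and 6.09 in the ancestor and 8.58 and 9.02 at 30 °C. All 12 arrays of the heat populations and the H2 line lay below both 30 °C values for this gene, between 6.14 and 7.94. WSC4, a member of the WSC family of cell-wall stress sensors, read 8.79 and 8.36 in the ancestor and 10.16 and 9.84 at 30 °C. Its highest heat or H2 value was 9.65. SCS7, which hydroxylates the fatty acid of sphingolipids, stood at 10.62 and 10.46 against 11.74 and 11.60, with the smallest SE of the 12 (1.13 ± 0.22). RGI1, named for its induction in respiratory growth, read 9.08 and 8.70 against 10.45 and 10.05. The abrupt-heat arrays spanned 7.89 to 11.02 for RGI1, a range that holds all 4 of these values. HOP1, a protein of the meiotic chromosome axis, was below background on both ancestor arrays and read 5.44 and 5.55 at 30 °C. YPL152W-A was also below background in the ancestor. PAU24, of the seripauperin family, and VHS2 differed by 1.03 ± 0.39 and 0.92 ± 0.25. None of the 12 passed the adjusted threshold in limma.

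**Figure D2:**
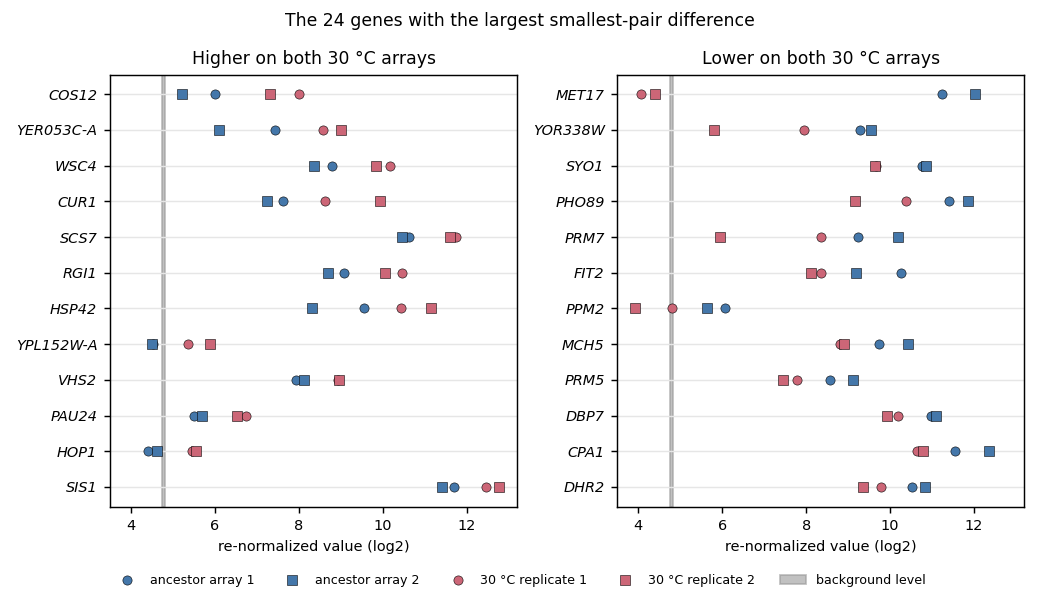
Re-normalized log2 values of the 12 higher and 12 lower genes with the largest smallest-pair difference, 1 row a gene and 1 point an array; the grey band is the background level. The red 30 °C points and blue ancestor points do not overlap in any row, which is how the genes were chosen, and MET17 has by far the widest gap.

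Protein quality control supplied 3 of those 12 genes. CUR1, which directs misfolded proteins to their deposit sites, read 7.63 and 7.23 in the ancestor and 8.62 and 9.94 at 30 °C. HSP42, the small heat shock protein that gathers aggregates in the cytosol, read 9.56 and 8.31 against 10.44 and 11.15. The Hsp40 co-chaperone gene SIS1 read 11.69 and 11.42 against 12.47 and 12.76. BTN2, a paralog of CUR1 with a related sorting role, stood at 9.28 and 8.44 against 9.73 and 11.62. For CUR1, HSP42, SIS1 and BTN2 the higher value was that of 30 °C replicate 2, the array normalized alone. The heat shock list as a whole did not share this direction. Of 27 chaperone genes, 6 were higher and 4 lower on both 30 °C arrays (28.3% and 23.7% of all genes were). The median difference was 0.03. HSP26 and SSA4, strongly heat-induced chaperone genes, differed by −0.39 ± 0.66 and −0.29 ± 0.50 with overlapping arrays.

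Genes of the general stress response, the targets of the activators Msn2 and Msn4, were mixed. Of 41, 16 were higher and 5 lower (28.3% and 23.7% of all genes were), with a median difference of 0.24. Without ancestor array 2 the median was 0.01, with 17 higher and 14 lower in the 2 remaining pairs, and without ancestor array 1 it was 0.37. YGP1, which encodes a secreted cell-wall glycoprotein, read 9.37 and 10.31 in the ancestor and 10.996 and 11.27 at 30 °C (1.30 ± 0.60, adjusted p = 0.392, limma). YGP1 spanned 10.07 to 12.07 after abrupt heat, 10.12 to 10.43 after gradual heat and 10.24 to 11.12 in the H2 line, and the trisomic clone read 11.95. RTN2, a reticulon-like protein of the endoplasmic reticulum, differed by 0.79 ± 0.22. The polyubiquitin gene UBI4 was lower, at 11.52 and 11.31 against 10.76 and 10.75. HSP12 and HSP30, both membrane-associated stress proteins, varied more between the ancestor arrays than between groups, and HSP30 also between the 30 °C replicates. HSP12 read 13.25 and 10.78 in the ancestor and 11.13 and 11.27 at 30 °C, and HSP30 read 10.71 and 7.38 against 11.98 and 8.36.

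The list with the most one-sign members by count was oxidative phosphorylation, the electron transport chain and ATP synthase of the mitochondrial inner membrane. Of 45 genes, 34 were higher on both 30 °C arrays than on both ancestor arrays (28.3% of all genes were), none was lower on both, and 11 overlapped. The mean difference was positive for 43 of the 45 (2796 of all 5303 genes) and the median was 0.48. No member passed limma's adjusted threshold, while 26 had an unadjusted p under 0.05, all higher. Of all 5303 genes, 392 were higher at that unadjusted threshold. By the mean level of the list, the ancestor arrays stood at 11.37 and 10.86 and the 30 °C arrays at 11.66 and 11.59.

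The higher values were spread over the chain. All 4 succinate dehydrogenase genes, 7 of 9 genes of the cytochrome bc1 complex, all 9 cytochrome c oxidase genes and 10 of 14 ATP synthase genes were higher on both 30 °C arrays. Their median differences were 0.59, 0.51, 0.59 and 0.38. RIP1, the Rieske iron-sulfur subunit of the bc1 complex, read 10.75 and 10.11 in the ancestor and 11.49 and 11.46 at 30 °C (1.05 ± 0.22). SDH2, the iron-sulfur subunit of succinate dehydrogenase, read 9.88 and 9.62 against 11.17 and 10.56 (1.12 ± 0.27). NDI1, the single-protein NADH dehydrogenase of the matrix face, read 8.79 and 8.36 against 9.48 and 9.79 (1.06 ± 0.23). These 3 were the members past the 1.5-fold minimum. QCR9, a small bc1 subunit, read 11.48 and 11.45 against 12.02 and 12.19.

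A few members stood apart. The external NADH dehydrogenase gene NDE2 differed by −0.62 ± 0.49 and the ATP synthase subunit gene ATP1 by −0.07 ± 0.14, the only negative means. With the run as a term both were positive, at 0.30 and 0.37, and COX5B, at −0.02, was the one negative member. INH1, which encodes the inhibitor of ATP hydrolysis, differed by 0.64 ± 0.45 with overlapping arrays. All 3 of the ATP synthase regulator genes overlapped.

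Size depended on which ancestor array was used. Against ancestor array 1 the list's median difference was 0.25, with 34 of the 45 genes higher on both 30 °C arrays. Against ancestor array 2 it was 0.72, with 43 higher. These counts need only 2 pairs of one sign, so the 28.3% of all genes, for 4 pairs, is not their comparison. The share over all genes for 2 pairs was not computed. By mean level, the other diploid groups lay between or beside the ancestor arrays. They read 10.95 to 11.31 after abrupt heat, 11.10 to 11.20 after gradual heat and 10.90 to 11.42 in the H2 line. The trisomic and monosomic clones read 11.39 and 11.45. Both 30 °C arrays were above all 16 of these other diploid arrays in mean level. A fit with the normalization run as a term rests on 30 °C replicate 1 and ancestor array 1 through 2 abrupt-heat arrays. There the list's median difference was 0.53 and 44 of 45 genes were positive, as were 2622 of all 5303 genes. That fit reuses a pair of arrays already counted above, so it is not independent support. It adds the difference between the 2 abrupt-heat arrays, at 11.31 in the run of ancestor array 1 and 11.03 in that of 30 °C replicate 1.

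**Figure D3:**
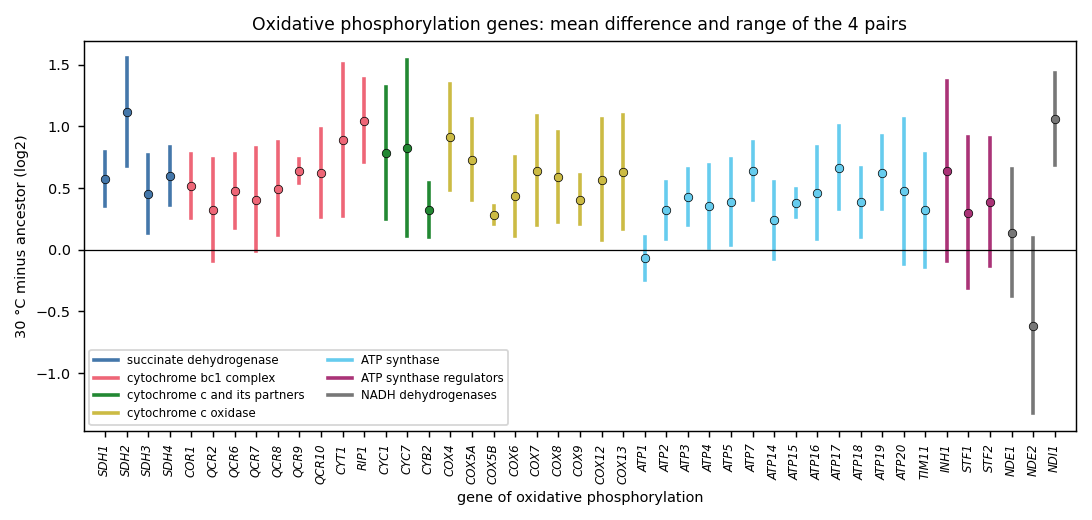
Difference in log2 between the 30 °C and ancestor arrays for the 45 oxidative phosphorylation genes, coloured by complex; points are differences of means and bars the range of the 4 pairwise differences. For 34 genes the whole bar lies above 0, and for none does it lie below.

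Other mitochondrial genes were also mostly higher, by less. Of 32 genes for mitochondrial protein import and the mitochondrial ribosome, 27 were higher and 1 was lower on both 30 °C arrays, with a median of 0.31. That share of higher genes was above that of oxidative phosphorylation and above the 28.3% of all genes. MRPS8, a small-subunit protein, read 10.27 and 10.23 in the ancestor and 10.69 and 10.89 at 30 °C. MRPL16, of the large subunit, read 10.62 and 10.20 against 10.99 and 11.07, and RPM2, the protein of mitochondrial RNase P, 9.83 and 9.80 against 10.49 and 10.23. The mean level of the list was 10.74 to 10.84 in the ancestor, 11.09 to 11.10 at 30 °C and 10.77 to 10.91 after abrupt heat, but 1 H2 array reached 11.10. With the run as a term the median was 0.11.

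Of 22 genes of heme synthesis and the Hap factors, which activate respiratory genes, 13 were higher and none lower (28.3% and 23.7% of all genes). The median was 0.27, and 0.16 without ancestor array 2. The list's mean level was 10.09 and 10.02 in the ancestor and 10.34 and 10.23 at 30 °C. It was 10.25 on the abrupt-heat array normalized with 30 °C replicate 1, and 10.20 in the monosomic clone. HAP2, a DNA-binding subunit of the Hap complex, read 8.49 and 8.59 in the ancestor and 9.22 and 9.01 at 30 °C. HEM15, ferrochelatase, read 10.42 and 10.33 against 10.88 and 10.80. Both differences were near 0 with the run as a term, at 0.03 for HAP2 and 0.02 for HEM15, and so was the list's median, at 0.03. The TCA and glyoxylate cycle was less one-sided, with 7 of 22 genes higher, 3 lower and a median of 0.11. Its share of higher genes was near the 28.3% of all genes. KGD2 and CIT1, encoding a subunit of alpha-ketoglutarate dehydrogenase and the mitochondrial citrate synthase, each differed by 0.45 (SE 0.14 and 0.18). IDP1, the mitochondrial NADP-dependent isocitrate dehydrogenase, differed by −0.37 ± 0.11.

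Glucose metabolism showed little common movement. For comparison, 28.3% of all genes were higher and 23.7% lower. Of 22 glycolysis and fermentation genes, 3 were higher and 3 lower, with a median of −0.04. The glucose transporter genes HXT2 and HXT3 differed by −0.63 ± 0.18 and −0.35 ± 0.10. HXT2 read 12.41 and 12.47 in the ancestor and 11.71 and 11.90 at 30 °C. Of 25 genes of gluconeogenesis, acetate use and beta-oxidation, 4 were higher and 9 lower. ACH1, which transfers CoA between acetate and other acids in mitochondria, was the one past 1.5-fold, at 9.39 and 9.00 against 9.99 and 9.99.

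Ribosome assembly genes were mostly lower at 30 °C. Of 44 ribosome biogenesis genes, which build and export the ribosomal subunits, 26 were lower on both 30 °C arrays (23.7% of all genes were) and 2 were higher. The median difference was −0.29, with 39 of 44 means negative (2506 of all 5303 genes). No member passed the adjusted threshold, and 13 had an unadjusted p under 0.05 in limma, all lower. Of all 5303 genes, 307 were lower at that unadjusted threshold. SSF1 and DBP2, an assembly factor of the large subunit and an RNA helicase, differed by −0.85 ± 0.26 and −0.65 ± 0.20. SSF1 read 10.75 and 10.72 in the ancestor and 10.17 and 9.60 at 30 °C. UTP7, of the processome that assembles the small subunit, read 11.18 and 11.07 against 10.53 and 10.55, and RRP12, an export factor, 11.58 and 11.97 against 10.76 and 11.09.

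Among the 12 lowest genes by the smallest pair, SYO1, DBP7 and DHR2 have roles in ribosome assembly. SYO1, which carries ribosomal proteins into the nucleus, read 10.76 and 10.85 in the ancestor and 9.66 and 9.65 at 30 °C, a difference of −1.15 ± 0.28. The helicase genes DBP7 and DHR2, of large and small subunit assembly, differed by −0.97 ± 0.23 and −1.11 ± 0.31. None of the 3 is a member of the list, and no member of the list passed the 1.5-fold minimum.

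The list's mean level was 11.67 and 11.78 on the ancestor arrays, 11.44 and 11.39 at 30 °C, 11.42 to 11.65 after abrupt heat and 11.74 to 11.77 after gradual heat. The abrupt-heat array normalized together with 30 °C replicate 1 was among the low ones. With the run as a term the median difference was −0.02, and SYO1, DBP7 and DHR2 were at −0.13, −0.19 and 0.02. Ribosomal protein genes, by contrast, differed little, with a median of 0.03. Of 47, 12 were higher and 8 lower (28.3% and 23.7% of all genes were).

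**Figure D4:**
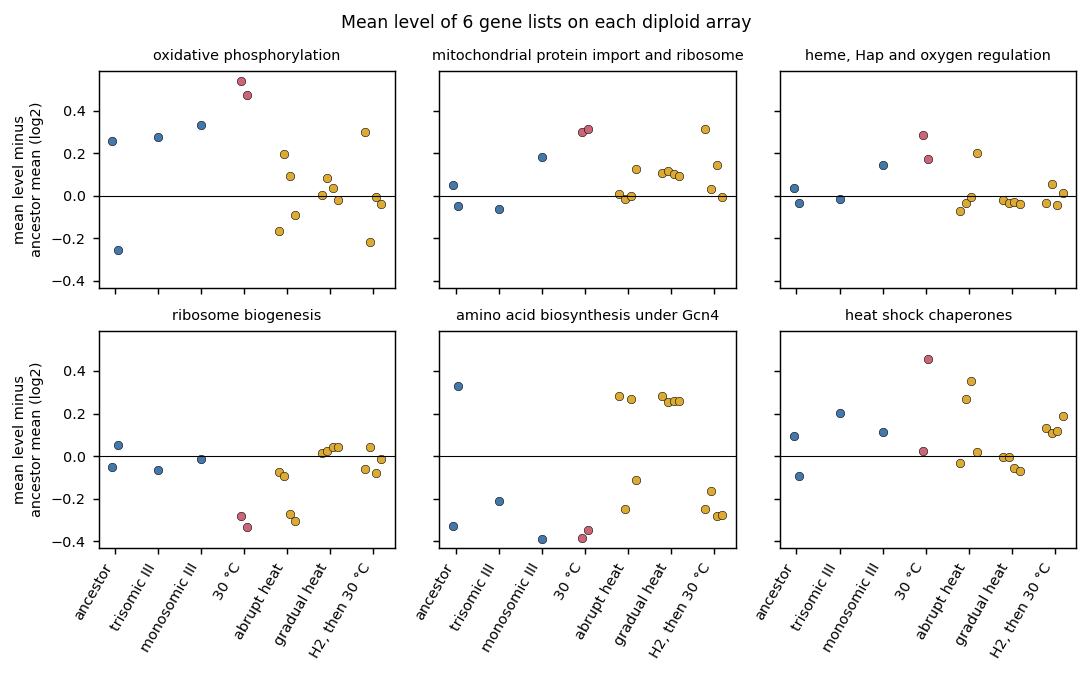
Mean log2 level of 6 gene lists on each of the 18 diploid arrays not on minimal medium, minus the mean of the 2 ancestor arrays; blue, unevolved; red, evolved at 30 °C; yellow, heat populations and the H2 line. The 30 °C points are the highest for oxidative phosphorylation, while for ribosome biogenesis 2 abrupt-heat arrays are about as low, and for Gcn4 targets the 2 ancestor arrays lie far apart.

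Of 46 amino acid synthesis genes under the activator Gcn4, 20 were lower on both 30 °C arrays (23.7% of all genes were). Only 1 was higher, and the median was −0.22. CPA1, the small subunit of carbamoyl phosphate synthetase in arginine synthesis, read 11.55 and 12.36 in the ancestor and 10.64 and 10.77 at 30 °C (−1.25 ± 0.34). TRP5, tryptophan synthase, read 12.58 and 12.90 against 12.12 and 12.15. HIS5 of histidine synthesis differed by −0.53 ± 0.23. For most of the list the difference came from ancestor array 2. Its mean level was 12.15, against 11.50 on ancestor array 1 and 11.44 and 11.47 at 30 °C, and the median was −0.52 against that array but −0.04 against ancestor array 1. ARG1, argininosuccinate synthetase, shows this most clearly, at 9.59 and 12.78 in the ancestor and 9.30 and 9.01 at 30 °C. ARO3 overlapped between the groups. By the mean level of the list, the gradual-heat arrays, normalized in the run of ancestor array 2, read 12.08 to 12.10. The H2 arrays, normalized in the run of ancestor array 1, read 11.54 to 11.66. With the run as a term the list's median difference was −0.19. Whether this level follows the run or the cells was not tested.

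Of the 12 lowest genes, PHO89 and FIT2 belong to the phosphate and the iron and copper lists, which had no common direction. PHO89, a sodium-phosphate cotransporter, read 11.41 and 11.85 in the ancestor and 10.37 and 9.17 at 30 °C (−1.86 ± 0.54), and the low-affinity phosphate transporter gene PHO90 differed by −0.77 ± 0.22. GIT1, a transporter of glycerophosphoinositol, differed by 0.92 ± 0.30, and the 21 phosphate genes were split, with 5 higher and 7 lower. FIT2, a cell-wall mannoprotein that retains iron siderophores, read 10.27 and 9.18 against 8.34 and 8.11. Of 33 iron and copper genes 3 were higher and 8 lower. For comparison with both lists, 28.3% of all genes were higher and 23.7% lower. The ferric reductase gene FRE1 differed by −0.64 ± 0.32, and SMF3, a vacuolar metal transporter, by 0.59 ± 0.17. MCH5, the riboflavin transporter, read 9.72 and 10.43 against 8.81 and 8.90, and FUI1, the uridine permease, differed by −0.70 ± 0.16.

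YOR338W and PRM7 differed widely between the 30 °C replicates. YOR338W read 9.28 and 9.54 in the ancestor and 7.95 and 5.81 at 30 °C. PRM7, named for pheromone regulation, read 9.23 and 10.19 against 8.35 and 5.94, and its 2 probe sets differed by −2.40 and −2.74. Both had their lowest value on 30 °C replicate 2. PRM5, a pheromone-regulated gene that also responds to cell-wall stress, was at 8.57 and 9.11 against 7.78 and 7.44. PPM2, a tRNA methyltransferase of wybutosine synthesis, read 6.06 and 5.64 against 4.81 and 3.93, the last of them below background. Of 40 cell-wall genes 11 were higher and 6 lower (28.3% and 23.7% of all genes were). GSC2, an alternative glucan synthase subunit, differed by −1.04 ± 0.39, and TIP1, a mannoprotein, by 0.62 ± 0.16.

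Markers of mating type were at low levels on all 4 arrays, matching the diploid label. The mean level of 13 haploid-specific genes was 6.92 to 7.16 on the 4 arrays, against 9.84 and 9.92 in the haploid ancestor arrays. The 7 a-specific genes averaged 6.32 to 6.70, against 11.34 in the second haploid array, and the 4 alpha-specific genes 6.14 to 7.19, against 11.58 in the first. The 26 meiosis genes averaged 6.18 to 6.30 on the 4 arrays and 6.32 and 6.33 in the haploids. Among these low values, the alpha-factor genes MF(ALPHA)1 and MF(ALPHA)2 were higher at 30 °C. MF(ALPHA)1 read 4.99 and 6.22 in the ancestor and 7.60 and 6.76 at 30 °C, and MF(ALPHA)2 5.82 and 5.55 against 7.43 and 6.31. The mean of the 4 alpha-specific genes was 6.79 and 7.19 on the 30 °C arrays, and the abrupt-heat arrays spanned 6.05 to 7.11. The a-factor gene MFA1 read 7.18 and 6.88 against 7.89 and 8.06, and turned to −0.29 with the run as a term. A small share of haploid cells and a low level in all cells cannot be told apart in bulk RNA.

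Chromosome content was checked by the mean level of the genes of each chromosome. The 16 differences ran from −0.04 for chromosome I to 0.04 for chromosome VI, and chromosome III differed by −0.01. The trisomic and monosomic clones lay at 0.44 and −0.44 for chromosome III against ancestor array 1. The smallest exact permutation p was 0.333, which is the lowest that 2 against 2 arrays allow in 6 arrangements (two-sided, 0.533 after adjustment over 16 chromosomes). Along the chromosomes, the median difference over windows of 11 neighbouring genes ran from −0.40 to 0.37 in 5143 windows.

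The fit with the normalization run as a term was set beside the values of the 78 genes. Its difference is 30 °C replicate 1 minus ancestor array 1, plus a difference between the abrupt-heat arrays that shared those runs. The 78 genes were chosen in part on the first of these, so a kept sign is not independent support. This fit also cannot tell runs apart from differences between those heat arrays. It called MET17, at −6.63, and no other gene. The sign was the same for 35 of the 43 higher genes and 24 of the 35 lower genes, and for 1494 of all 2756 one-sign genes. YGP1 was larger there, at 3.64 against 1.30, and YER053C-A, at 1.81, RSB1, at 1.78, and PRM5, at −1.29, stayed near their values. COS12, SCS7, RGI1 and VHS2 shrank to 0.71, 0.37, 0.13 and 0.16, and CUR1, HSP42 and SIS1 to 0.42, 0.53 and 0.06. The sign turned for YOR338W and PRM7, whose values were 0.19 and 0.35.

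**Figure D5:**
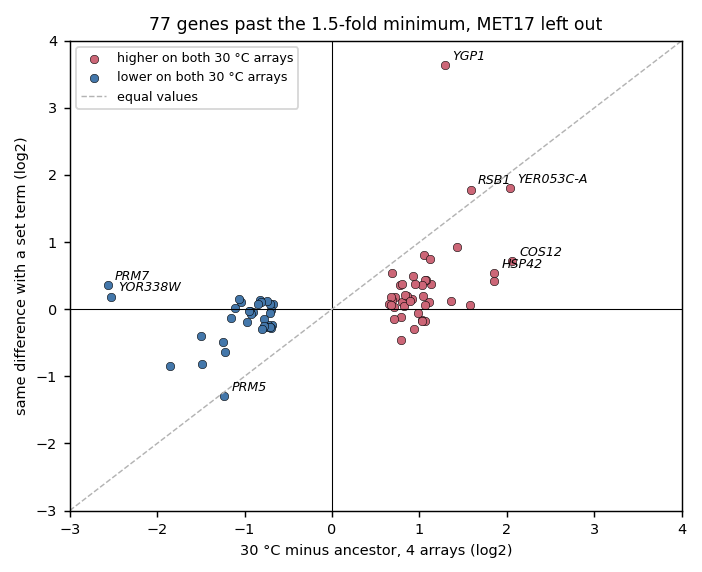
Difference in log2 of the 77 genes past the 1.5-fold minimum other than MET17, from the 4 arrays (horizontal axis) and from the fit with the normalization run as a term (vertical axis); red, higher at 30 °C; blue, lower. Most points lie between the horizontal axis and the dashed line of equal values, YGP1 lies above it, and YOR338W and PRM7 cross to the other sign.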

How the data were processed

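The authors deposited log2 values made with RMA, per the submitters' processing notes. No RMA version, and no record of which arrays were normalized together, is given in the sources used here. Runs were inferred where at least 0.1% of values were identical between arrays, which gave 9. Probe sets were matched through the platform annotation to 5449 genes of the R64 table (5498 of 10928 probe sets), and probe sets of a gene were averaged. The 1746 probe sets with a gene name that matched no gene of the R64 table gave the background. They were taken to be for another species. A gene was tested where it was above background on at least 2 of 8 arrays (2 ancestor, 2 at 30 °C, 4 abrupt heat).

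The gene tests used limma 3.58.1 (R 4.3.3; trended prior, Benjamini-Hochberg over 5303 genes, 5 residual degrees of freedom), checked on simulated data. The number of arrays limits the precision. Errors are limma's SE. The ancestor arrays carry no replicate numbers.

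Genes named were those called, the 12 higher and 12 lower with the largest smallest-pair difference, of each list up to 4 one-sign members and 2 overlapping ones, and MET17 and YGP1; complexes, neighbours and separation from unevolved arrays were added with values known. The comparison, members and lists were chosen with earlier results of these data known. Alternatives covered normalization, filters, probe sets, arrays in the fit, runs, prior, weights and each array left out. Scanner files were not used here.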

Additional observations from a re-analysis of the deposited data

How the results depend on the processing

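The limma calls stayed at 0 higher and 1 lower, with MET17 the gene called, under the deposited values, median centring, both other quantile normalizations, no filter, the highest probe set, the 4 arrays alone, the run term, no trend and array weights. No gene was called lower with a filter of above background on all 4 arrays, which removes MET17. Pooling all 18 diploid arrays not on minimal medium gave 168 higher and 175 lower. In that fit the gradual-heat arrays lie in 1 run and the H2 arrays in another, while the compared arrays come from 4. The spread within those heat and H2 groups therefore holds no difference between runs. The cause of the larger counts was not tested. Leaving out each array gave 0 to 1 higher and 0 to 1 lower. Without 30 °C replicate 1 the higher gene was RPS26A (adjusted p = 0.0185, limma), and without either ancestor array MET17 was no longer above background on enough arrays to be tested. The 43 higher and 35 lower genes past 1.5-fold became 109 and 4 on the deposited values, 71 and 13 with median centring, and 3 and 4 at a 2-fold minimum. Without each array in turn they numbered 104 to 232 and 65 to 237, fewer pairs then having to pass. The largest chromosome difference lay between 0.04 and 0.07 under alternatives chosen after seeing the data.

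Of 1226 recomputed gene values, 31 changed sign, 12 of them for genes of one sign in all 4 pairs. With the run term the latter were PAU24 (−0.17), HOP1 (−0.050), YOR338W (0.19), PRM7 (0.35), DHR2 (0.022), MUP3 (−0.061), MFA1 (−0.29), COS7 (−0.51), GSC2 (0.11) and HRI1 (−0.11), and with the deposited values HXT3 (0.018) and IDP1 (0.033). Overlapping genes that turned with the run term were NDE2 (0.30), ATP1 (0.37), HSP26 (0.72), SSA4 (1.02) and HSP12 (1.69).

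Of 480 recomputed list medians 44 changed sign, 22 of them on leaving out an array. Of these, 10 turned without ancestor array 2, 6 without 30 °C replicate 2, 4 without 30 °C replicate 1 and 2 without ancestor array 1, among them methionine (0.075 without ancestor array 2) and heat shock chaperones (−0.092 without 30 °C replicate 2). The run term turned 7, namely ergosterol (−0.041), a-specific genes (−0.58), NAD synthesis (−0.020), the COS family (−0.004209), methionine (0.037), thiamine (−0.11) and nitrogen use (−0.040). The deposited values, which shift the median of all genes by 0.46, turned 11 positive, all below that shift, among them Gcn4 targets (0.19), ribosome biogenesis (0.15), iron and copper uptake (0.30) and gluconeogenesis (0.42). Gluconeogenesis also turned with median centring (0.018), and without each array in turn it ran from −0.102 to 0.057. The cause of these turns was not tested.

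No paired analysis was possible because the ancestor arrays carry no replicate number, so no array of one group is matched to one of the other. No run holds both groups, so run and group are separated only through the abrupt-heat arrays. The values of 30 °C replicate 2 and ancestor array 2 do not enter the difference of that fit. Dim genes such as HOP1 and YPL152W-A are limited by signal over background.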

Other observations

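Lists not described above showed small and mixed differences between the 30 °C and ancestor arrays. For comparison, 28.3% of all genes were higher and 23.7% lower on both 30 °C arrays. Of 26 ergosterol genes, 11 were higher and 6 lower on both 30 °C arrays, and of 22 phospholipid genes 8 were higher and 5 lower. NAD synthesis had 6 of 14 higher and 3 lower, and thiamine genes 4 of 16 higher and 2 lower. Of 38 genes of nitrogen use and aromatic amino acid breakdown 10 were higher and 8 lower, and of 29 purine and uracil genes 4 were higher and 5 lower. Cell division lists were likewise split, with 7 of 31 histone and G1/S genes higher and 5 lower, and 5 of 19 daughter-cell and mitosis genes higher and 7 lower. Of 25 hexose transport and glucose repression genes 3 were higher and 6 lower. Of 10 genes that often serve as auxotrophic markers 1 was higher and 2 lower, MET17 being the one that passed the limma threshold.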
